A study of Mus musculus with 4 samples.

Results

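The 33 genes described here are the mouse C-type lectin genes that carry a Clec number with a letter, such as Clec4e and Clec7a, together with the Cd209 genes Cd209a to Cd209f. They were taken by gene name from all non-control probes of the arrays, and they make up 33 of the 19822 genes named on the array. They were read by 46 probes, and for the 10 genes with more than 1 probe the brightest over the 4 arrays was used. The RefSeq accession attached to each of the 33 probes led to the same gene symbol. Another 3 lectin genes stood on the array under older names and fell outside the naming rule. Among them Clec10a, a galactose-binding lectin of macrophages and dendritic cells listed as Mgl1, had log2 levels of 0.52 in antibody-treated sDCs, 0.61 in sDCs, 1.68 in maDCs and 2.08 in imDCs.

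Gene expression was measured in 4 bone-marrow cultures from BALB/C mice, with 1 one-colour Agilent array per culture and no replicates. The cells called antibody-treated sDCs arose from lineage-depleted progenitors on a monolayer of Sca-1+CD117-Lin- mesenchymal stem cells, received lipopolysaccharide (LPS) on day 4, and were given a neutralizing antibody to IL-10 at 10 µg/mL every 2 days. The sDCs were formed on the same kind of monolayer, also with LPS on day 4, and without the antibody, and these stroma-formed cells were complete on day 9. The maDCs, or mature dendritic cells (DCs), were imDCs cultured for 4 to 5 further days with LPS at 10 ng/mL. The imDCs, or immature DCs, were loosely adherent clusters collected on day 4 of culture in GM-CSF at 10 ng/mL and IL-4 at 5 ng/mL and selected with beads against CD11c. The labels call all 4 populations purified and do not say how the sDCs were parted from the stromal monolayer. GM-CSF and IL-4 are listed at the same concentrations for the maDCs, which were made from the imDCs, and not for the stroma-formed cells. No LPS concentration is given for either sDC culture.

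C-type lectins are receptors with a shared carbohydrate-recognition fold, which many members use to bind sugars of fungi, bacteria and glycoproteins and others use to bind proteins. In myeloid cells one set activates the kinase Syk, through an adaptor such as the Fc receptor γ chain or DAP12 or through a tyrosine motif of its own. Another set recruits phosphatases that dampen such signals, and others, among them the Cd209 (DC-SIGN) family, take up ligands or mediate adhesion. Most of these genes lie in tandem arrays, where neighbours arose by duplication.

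Every level below is the log2 processed signal of a probe minus the 75th percentile of its own array, so that 0 marks a signal at that percentile. A difference is between 2 levels of the same probe, 1 unit is 2-fold, and levels of different genes are not set against each other. A difference of at least 2-fold is called higher or lower, and this is a size and not a test, because 1 array per group allows no p-value or standard error. The median SD between repeated spots of a probe on 1 array was 0.047 to 0.059 log2 units over the 4 arrays, which measures printing and scanning and not cultures. A difference with a dim side, meaning a probe not well above background on 1 array of the comparison, is a bound and is written as at least N-fold. It sets the bright array against the lowest signal well above background on the other array, or the dim probe's own signal if that was higher. The imDC array lay on slide 1 and the other 3 on slide 2, so any difference from imDCs is also one between slides, and the 2 cannot be told apart. Each array read RNA from a whole cell population, so fewer cells of a type and less RNA per cell cannot be told apart either.

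The arrays differed in cell markers that bear on every result below. Itgax, the gene for CD11c, had levels of -1.47 in antibody-treated sDCs, -1.60 in sDCs, 3.70 in maDCs and 2.93 in imDCs. Of 14 DC markers, 12 were lower in sDCs than in maDCs (median -4.35), and Irf4, a DC transcription factor, was not well above background on either sDC array. Of the macrophage and monocyte markers, 11 of 15 with a value were higher in sDCs than in maDCs and 13 of 14 were higher in sDCs than in imDCs. The log2 summed level of the macrophage list was 9.41 in antibody-treated sDCs, 9.53 in sDCs, 8.27 in maDCs and 6.26 in imDCs. The same sum for neutrophil markers was 8.15, 7.39, 6.59 and 10.21 in that order of arrays, and for eosinophil markers -2.66, -3.16, 2.01 and 5.01. For mast cell and basophil markers it was -0.19, -0.55, 7.12 and 4.74, with 8 of 9 with a value lower in sDCs than in maDCs and 9 of 9 higher in maDCs than in imDCs. Of 14 stromal markers, 11 were higher and 2 lower in sDCs than in maDCs. With the antibody, all 14 stromal markers were below their level in sDCs (median -0.89, 2 past 2-fold), and 6 of 13 neutrophil markers were higher (median 0.96). The part of these cell types in the lectin differences was not tested.

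Of the 33 lectin genes, 16 were well above background on all 4 arrays, 11 on 1 to 3 arrays and 6 on none. By array, 19 were detected in antibody-treated sDCs, 20 in sDCs, 16 in maDCs and 25 in imDCs. Over all genes the shares detected were 70.4%, 72.8%, 69.5% and 76.3% in that order, so the imDC array detected the most genes in general, and its lowest signal above background was also the lowest, at -7.28 against -5.76, -6.04 and -5.44 on the other arrays in that order. Cd209a, Cd209c, Cd209d, Cd209e, Clec4f, Clec9a and Clec1a were above background in imDCs and on no other array, which was so for 3.9% of all genes. Clec1a was not higher in imDCs for that, since its signal was -6.81 in maDCs, where it was not well above background, and -7.05 in imDCs. Clec4a1 and Cd209f were above background on the 2 sDC arrays alone. Cd209b, Clec12b, Clec14a, Clec2e, Clec2h and Clec3a were not well above background anywhere, so that nothing is said of their change.

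**Figure D1:**
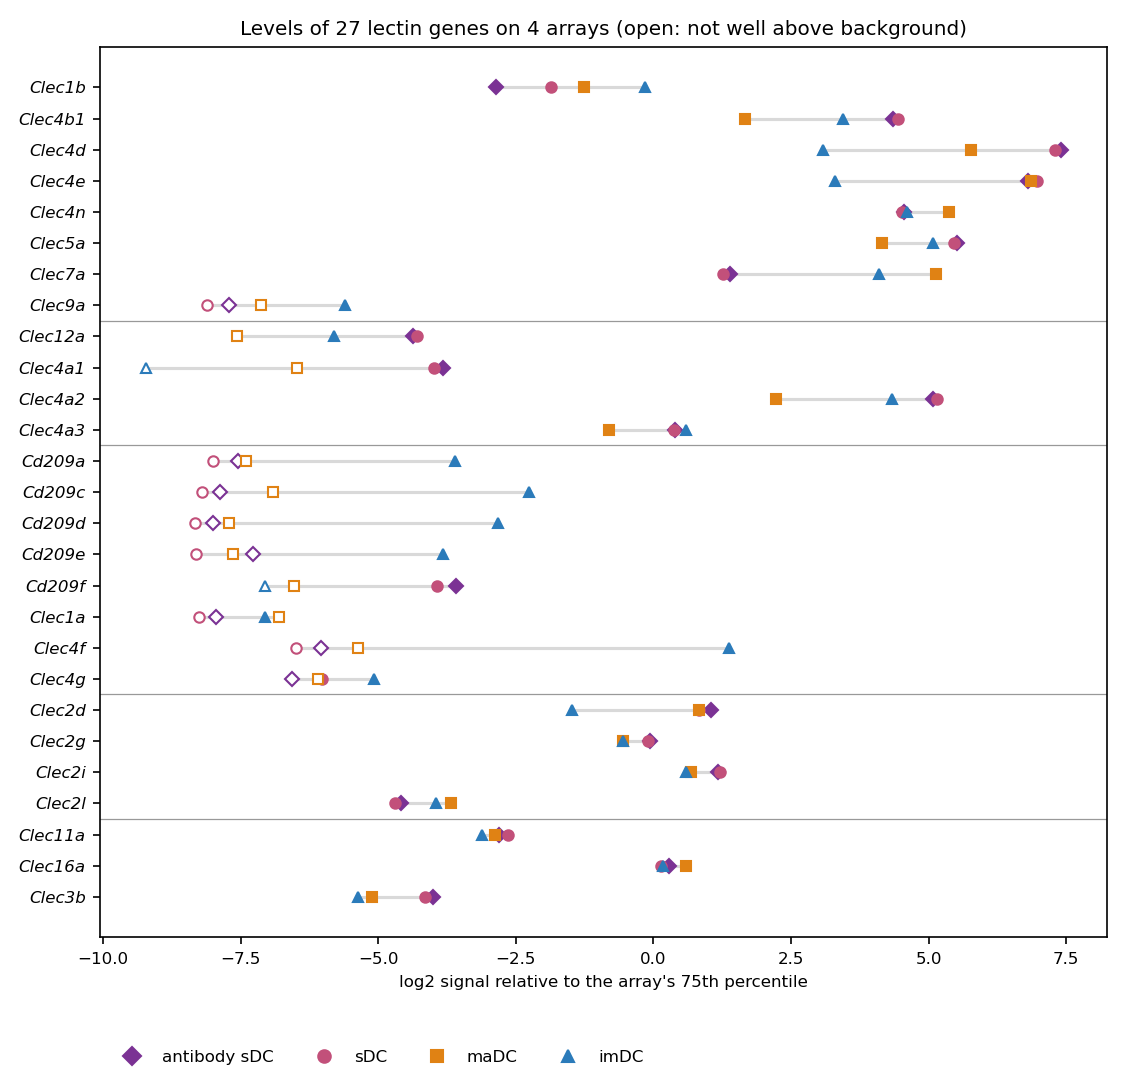
Level of each lectin gene that was well above background on at least 1 array, on a log2 scale relative to the 75th percentile of the array, with 1 point per array and open points where the probe was not well above background. Clec4d and Clec4e sat lowest in imDCs, Clec7a sat lowest on the 2 sDC arrays, and Clec4f and Cd209c stood above background in imDCs only.

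The sequences just before 4 of these genes are shown because these receptor genes of chromosome 6 differed between the cultures in different directions. Clec4d and Clec4e were low in imDCs, Clec4b1 was lowest in maDCs, and Clec7a was lowest in both sDC cultures. Each is the 250 bases before the annotated start in RefSeq, build GRCm38.p6, written in the direction of the gene, and capitals mark GAGGAA or its reverse complement, the core bound by PU.1, a transcription factor of myeloid cells. Their positions are chr6:123289872-123290121 on the minus strand for Clec4e, chr6:123261857-123262106 on the plus strand for Clec4d, chr6:123049712-123049961 on the plus strand for Clec4b1 and chr6:129472780-129473029 on the minus strand for Clec7a.
Clec4e: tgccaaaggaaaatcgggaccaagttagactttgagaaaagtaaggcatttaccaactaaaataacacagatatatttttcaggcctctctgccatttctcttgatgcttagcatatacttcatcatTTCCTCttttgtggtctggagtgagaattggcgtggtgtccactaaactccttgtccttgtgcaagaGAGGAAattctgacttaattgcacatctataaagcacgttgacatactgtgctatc
Clec4d: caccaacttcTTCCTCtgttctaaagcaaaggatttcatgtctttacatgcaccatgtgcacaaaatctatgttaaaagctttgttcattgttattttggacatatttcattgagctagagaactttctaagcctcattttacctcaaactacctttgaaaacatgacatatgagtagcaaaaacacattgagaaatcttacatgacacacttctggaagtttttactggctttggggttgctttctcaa
Clec4b1: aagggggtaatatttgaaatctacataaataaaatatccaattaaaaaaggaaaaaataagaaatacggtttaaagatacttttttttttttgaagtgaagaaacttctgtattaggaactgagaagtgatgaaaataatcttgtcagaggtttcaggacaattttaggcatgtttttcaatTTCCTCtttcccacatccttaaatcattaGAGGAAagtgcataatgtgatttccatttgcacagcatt
Clec7a: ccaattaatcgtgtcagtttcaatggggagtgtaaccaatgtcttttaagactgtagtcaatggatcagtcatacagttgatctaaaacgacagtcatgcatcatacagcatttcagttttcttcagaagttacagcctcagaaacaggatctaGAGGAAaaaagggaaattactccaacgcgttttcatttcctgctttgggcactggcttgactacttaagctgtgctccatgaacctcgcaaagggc
The core was found in 14 of 32 windows of lectin genes (43.8%), against 23.3% of all 32851 windows of that length. These 32 windows belong to the 29 lectin genes that were matched in RefSeq's promoter table, and windows of a gene or of neighbouring copies share letters, so they are not independent. Among them Clec4d holds 1 core, Clec4e and Clec4b1 hold 2 each and Clec7a holds 1. A longer ETS-IRF motif, GGAA and GAAA with any 2 bases between them, stood in 7 of the 32 windows (21.9%) against 2.30% of all windows, and those 7 belong to Cd209d, Cd209e, Clec2i, Clec4a1 and Clec7a. Both motifs contain GGAA and can overlap. Further motifs were searched on both strands as well. TGANTCA (AP-1) stood in 15.6% of the lectin windows against 6.75% of all, TTNNGNAA (C/EBP) in 53.1% against 36.8%, and TGCTGA (part of a MAF site) in 31.2% against 16.1%. TTC and GAA with any 4 bases between them (STAT6) stood in 15.6% against 5.85%, TTCNNNGAA (other STAT factors) in 3.12% against 7.02%, and GGG and TTCC with any 3 bases between them (NF-kB) in 3.12% against 4.65%. GAAA repeated after any 2 bases (interferon response) stood in 6.25% against 2.98% and TATAAA in 28.1% against 12.4%. A match describes letters and says nothing about whether a factor was bound.

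The first comparison asked what neutralizing IL-10 did to sDCs, whose arrays shared a slide. No lectin gene differed by 2-fold or more between antibody-treated sDCs and sDCs. Of the 33 genes, 19 had a value, their median difference was 0.04, and 17 of the 19 differed by no more than 0.25 log2 units. Over all genes with a value, 2.12% differed by at least 2-fold, 0.862% being higher and 1.26% lower with the antibody, and 11187 of 13802 genes measured on both arrays lay within 0.25. The SD of the difference was 0.27 over the 19 lectin genes and 0.28 over all measured genes.

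The 2 lectin genes outside that window were Clec1b and Cd209f. Clec1b, whose product CLEC-2 is the podoplanin receptor of platelets and some myeloid cells, had levels of -2.86 in antibody-treated sDCs, -1.87 in sDCs, -1.26 in maDCs and -0.15 in imDCs. It was thus lowest with the antibody and highest in imDCs, and its difference from sDCs was -0.99 (1.98-fold lower), just short of the threshold. Of 9 platelet and megakaryocyte markers, 3 were at least 2-fold lower with the antibody and none was higher. Their median was -0.85, with Ppbp at -1.48 and Pf4 at -0.34, and their part in the value of Clec1b was not tested. Cd209f was 0.35 higher with the antibody.

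**Figure D2:**
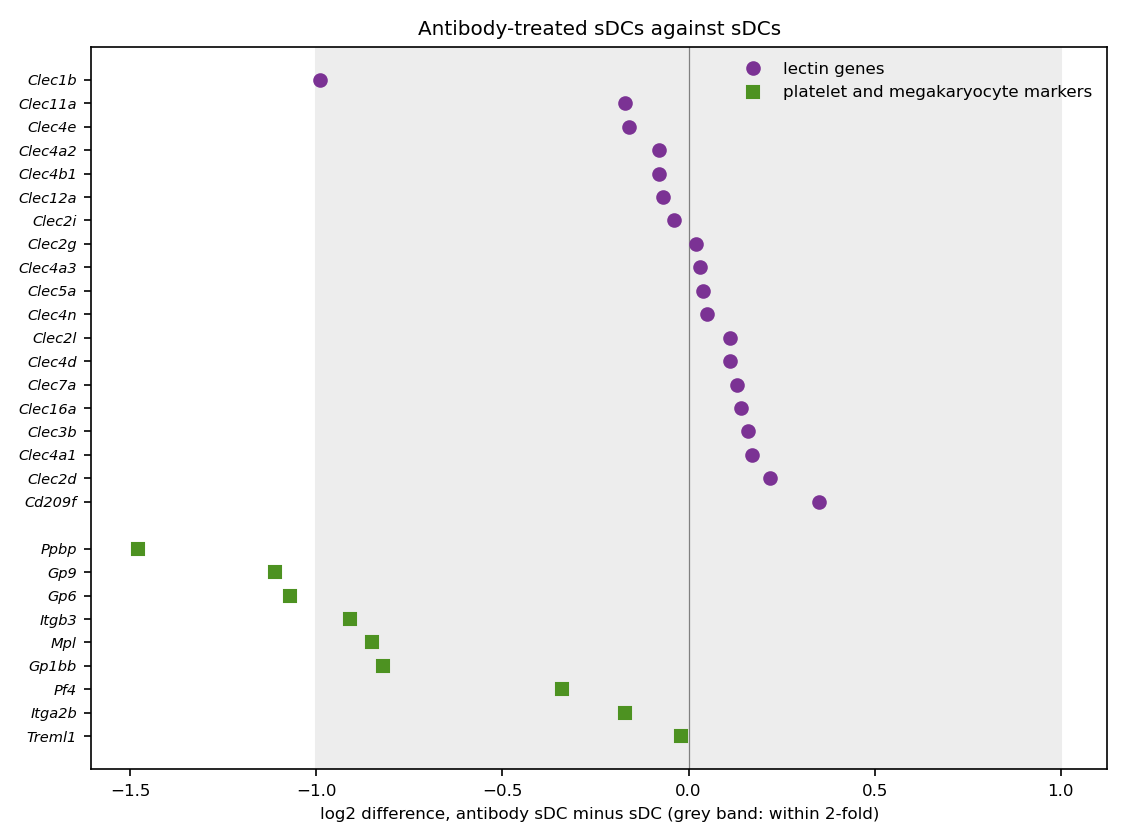
Log2 difference of antibody-treated sDCs minus sDCs, with 1 row per gene, for the lectin genes measured on both arrays (circles) and for 9 platelet and megakaryocyte markers (squares). The grey band marks differences within 2-fold. The 19 lectin genes all lie within the band, and Clec1b is the lowest of them at -0.99.

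In the second comparison, sDCs were set against maDCs, which had also received LPS and lay on the same slide. Of 19 lectin genes with a value, 8 were higher in sDCs (42.1%) and 2 were lower, while over all genes 31.0% differed by 2-fold or more, 14.2% being higher and 16.8% lower. The median was 0.54 for the lectin genes and 0.03 for all genes, and with all 33 genes at their own signal, dim probes included, the lectin median was -0.32. Of the 8 higher genes, 3 were bounds, which entered the count only because the gene was above background in sDCs. Among the 16 lectin genes above background on all 4 arrays, 5 were higher and 2 lower. The shares over all genes, here and in the comparisons with imDCs, include bounds. No such share was computed for genes above background on all 4 arrays, so these counts of the 16 have no matching share.

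Against imDCs, sDCs had 8 lectin genes higher and 7 lower of 26 with a value (30.8% and 26.9%), with 8 bounds, against 41.5% past 2-fold over all genes, 25.4% higher and 16.1% lower. After quantile normalization 6 were higher and 9 lower, so the balance of the 2 directions rests on the scaling. The 16 genes detected everywhere gave 5 higher and 2 lower. The third set, maDCs against imDCs, had 4 higher and 9 lower of 22 (18.2% and 40.9%), with 6 bounds, against 32.3% past 2-fold over all genes, 21.6% higher and 10.8% lower. Among the 16 genes detected everywhere, 4 were higher and 4 lower in maDCs. In both comparisons with imDCs, the lower calls of Cd209a, Cd209c, Cd209d, Cd209e and Clec4f were bounds. These genes were above background in imDCs and dim on the other array, so they could only come out lower. The bounds for Cd209f and Clec4a1, dim in imDCs, could only come out higher in sDCs. These comparisons share the sDC, maDC and imDC arrays, so their values are given side by side and not set against each other. The median of all genes was itself 0.21 for sDCs minus imDCs and 0.18 for maDCs minus imDCs, and quantile normalization took these to 0.00 and -0.02. It also took the share of calls that were higher over all genes to 51.8%, against 61.2%, in the sDC comparison and to 55.2%, against 66.7%, in the maDC comparison.

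**Figure D3:**
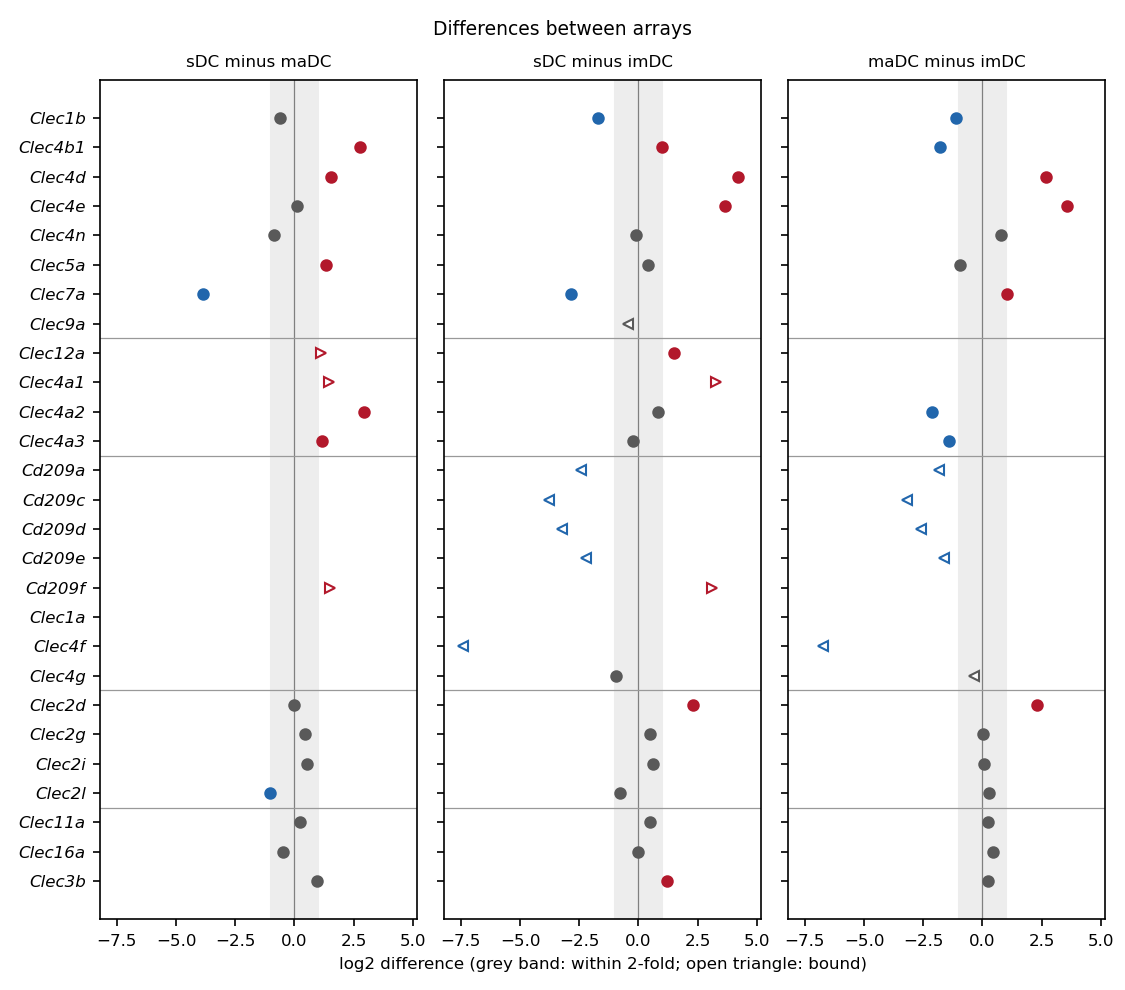
Log2 differences of the lectin genes for sDCs minus maDCs, sDCs minus imDCs and maDCs minus imDCs. Filled circles mark measured differences, open triangles mark bounds, and the grey band marks differences within 2-fold. The comparisons with imDCs spread from -7.41 for Clec4f to 4.22 for Clec4d.

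Among the 8 activating receptor genes, the pair Clec4e and Clec4d stood out by its low level in imDCs. Clec4e encodes Mincle, a receptor for mycobacterial cord factor and for ligands of dying cells, and its probe lies on chromosome 6 at 123232878 to 123232937 (mm9). Its levels were 6.81 in antibody-treated sDCs, 6.97 in sDCs, 6.86 in maDCs and 3.30 in imDCs. The 3 LPS-exposed cultures lay close together, and Clec4e was 12.7-fold higher in sDCs than in imDCs and 11.8-fold higher in maDCs than in imDCs. Clec4d, which encodes MCL, the partner of Mincle at the cell surface, lies next to it at 123224788 to 123224847. Its levels were 7.41 in antibody-treated sDCs, 7.30 in sDCs, 5.77 in maDCs and 3.09 in imDCs. The 2 sDC arrays were thus the highest and imDCs the lowest, with Clec4d 2.89-fold higher in sDCs than in maDCs, 6.42-fold higher in maDCs than in imDCs, and 18.6-fold higher in sDCs than in imDCs. In the differences from imDCs, the slide, the LPS, the days in culture and the makeup of the cells cannot be told apart.

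Clec7a was lowest in the stroma-formed cells. It encodes Dectin-1, the β-glucan receptor for fungal cell walls, and its probe lies on chromosome 6 at 129411739 to 129411798 (mm9). Its levels were 1.39 in antibody-treated sDCs, 1.27 in sDCs, 5.13 in maDCs and 4.10 in imDCs. Both sDC arrays were low, 14.5-fold lower in sDCs than in maDCs and 7.11-fold lower in sDCs than in imDCs. The difference of maDCs from imDCs was 1.03, and it was 0.72 after quantile normalization, so its place past 2-fold rests on the scaling.

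Clec4n, which encodes Dectin-2, a receptor for fungal mannans, differed by less than 2-fold in every comparison. Its levels were 4.56 in antibody-treated sDCs, 4.51 in sDCs, 5.37 in maDCs and 4.61 in imDCs, highest in maDCs. Clec5a encodes MDL-1, which signals through DAP12, and had levels of 5.51 in antibody-treated sDCs, 5.47 in sDCs, 4.15 in maDCs and 5.08 in imDCs. It was lowest in maDCs and 2.51-fold higher in sDCs than in maDCs, and the other 2 Clec5a probes gave log2 differences of 1.28 and 1.29. For maDCs minus imDCs the brightest probe gave -0.93 and the other 2 gave -2.12 and -1.37. The probes disagree for sDCs minus imDCs, where they gave 0.40, -0.84 and -0.09.

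Clec4b1, an activating receptor of the DCIR group known from mouse as DCAR, had levels of 4.36 in antibody-treated sDCs, 4.45 in sDCs, 1.66 in maDCs and 3.44 in imDCs. The maDC array was the lowest, and Clec4b1 was 6.90-fold higher in sDCs than in maDCs. Against imDCs, sDCs were 2.0-fold higher, at the limit of the call, and 0.85 higher in log2 after quantile normalization. Clec1b, given above, was 3.28-fold lower in sDCs and 2.15-fold lower in maDCs than in imDCs. Clec9a encodes DNGR-1, the receptor for actin of dead cells on cross-presenting DCs, and was above background in imDCs alone, at -5.60, where the lowest signal above background was -7.28. The bound for sDCs minus imDCs was -0.44, under 2-fold.

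The group listed as inhibitory held Clec4a2, Clec12a and Clec12b, and also Clec4a1 and Clec4a3, which were placed there as relatives of Clec4a2. Of these 5 genes, 2 were measured in both sDCs and maDCs, Clec4a2 and Clec4a3. Both were higher in sDCs, beside 14.2% higher and 16.8% lower over all genes. For Clec4a1 and Clec12a only bounds were available, since they were dim in maDCs, and these could not have come out lower in sDCs. Clec4a2 encodes DCIR, which carries an inhibitory tyrosine motif, and had levels of 5.08 in antibody-treated sDCs, 5.16 in sDCs, 2.23 in maDCs and 4.34 in imDCs. It was 7.61-fold higher in sDCs than in maDCs and 4.31-fold lower in maDCs than in imDCs. A second Clec4a2 probe gave log2 differences of 2.95 and -2.83 in the same comparisons, and the third gave a bound of 0.95 for sDCs over maDCs. For sDCs minus imDCs the probes disagree, with 0.82 for the brightest, 0.13 for the second and 1.86 for the third. The listed position of the second probe, 122954086 to 123018471 (mm9), lies apart from those of the other Clec4a2 probes, which start at 123090676 and 123093620. Whether the second probe reads the same gene was not tested. Clec4a3, a DCIR relative, had levels of 0.40 in antibody-treated sDCs, 0.38 in sDCs, -0.81 in maDCs and 0.60 in imDCs, so that it too was lowest in maDCs. It was 2.27-fold higher in sDCs than in maDCs and 2.65-fold lower in maDCs than in imDCs.

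Clec4a1, another DCIR relative, was detected on the sDC arrays alone, at -3.82 with the antibody and -3.99 without it. It was at least 2.73-fold higher in sDCs than in maDCs and at least 9.75-fold higher in sDCs than in imDCs. Clec12a encodes MICL, an inhibitory receptor that senses urate crystals, with levels of -4.37 in antibody-treated sDCs, -4.30 in sDCs and -5.81 in imDCs and no signal well above background in maDCs. It was at least 2.20-fold higher in sDCs than in maDCs and 2.85-fold higher than in imDCs, a log2 difference of 1.51 that became 0.97 in the authors' deposited value table. With normexp background correction the bounds for Clec4a1 and Clec12a over maDCs were 0.63 and 0.48 in log2, below 2-fold.

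The 7 genes of the Dectin-2 region of chromosome 6, whose probes span 122878028 to 123232937 (mm9), hold the Clec4a genes, Clec4b1, Clec4n, Clec4d and Clec4e side by side. In sDCs 5 of the 7 were higher than in maDCs and none was lower, against 14.2% higher and 16.8% lower over all genes, and 1 of the 5, Clec4a1, was a bound. Against imDCs, 4 of the 7 were higher in sDCs and none was lower, against 25.4% and 16.1% over all genes. Clec4a1 was again a bound, and Clec4b1 was the gene of these 4 that fell short of 2-fold after quantile normalization. Within maDCs minus imDCs this block split, with Clec4d and Clec4e higher, and Clec4a2, Clec4a3 and Clec4b1 lower. The neighbours therefore did not share 1 pattern over the cultures.

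**Figure D4:**
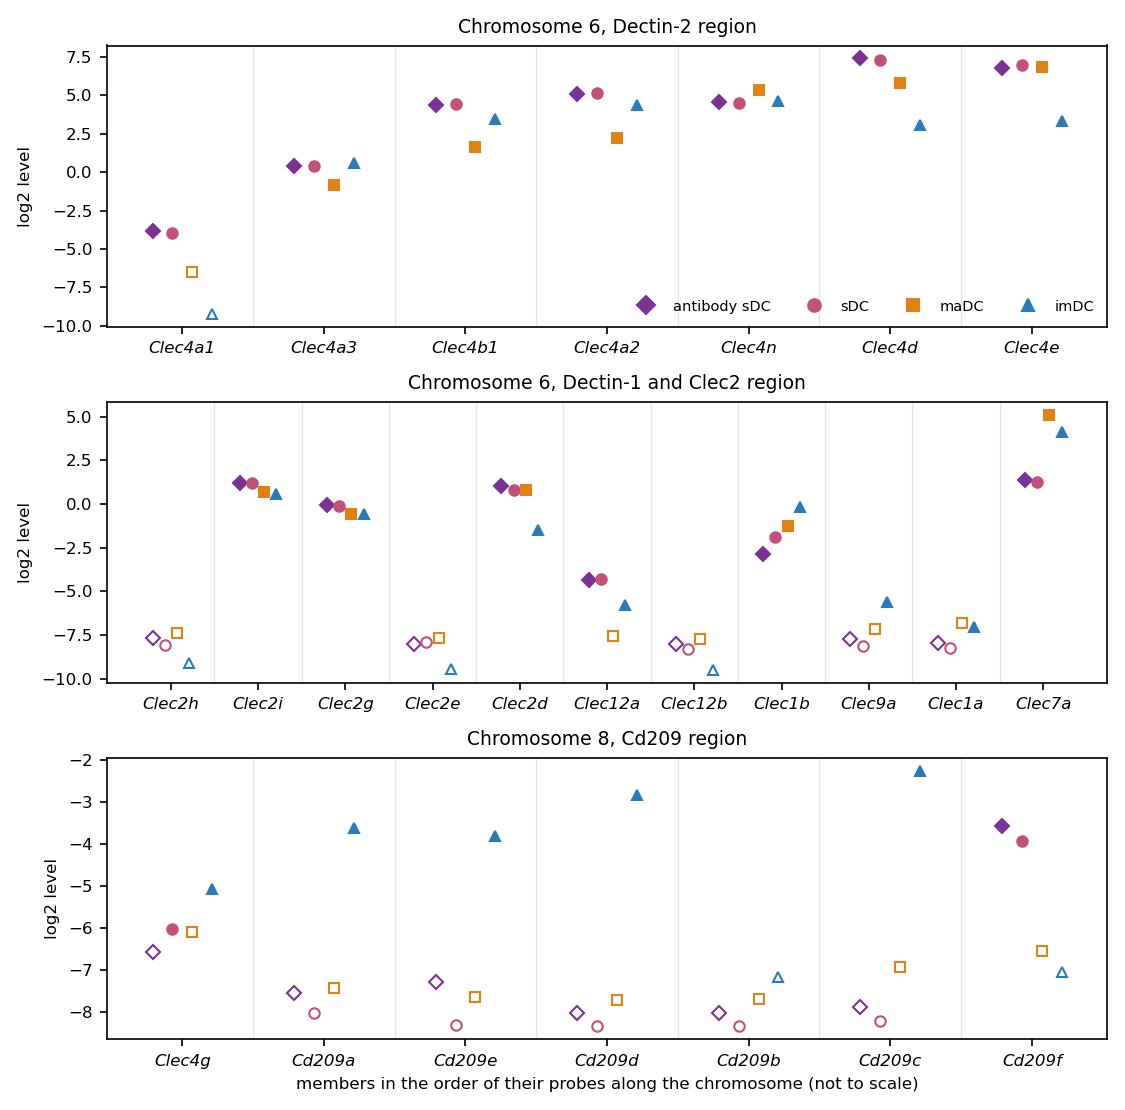
Log2 levels of lectin genes in the order of their probes along 3 gene clusters, with open points where the probe was not well above background. In the Dectin-2 region, maDCs lie above imDCs for Clec4d and Clec4e and below them for Clec4a2, Clec4a3 and Clec4b1. In the Cd209 region, Cd209a, Cd209c, Cd209d and Cd209e stood above background in imDCs only, and Cd209f on both sDC arrays only.

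The 10 endocytic and adhesion receptors were detected mainly on the imDC array. Clec4f, a galactose-binding receptor known in mouse from Kupffer cells, the macrophages of the liver, had a level of 1.38 in imDCs. Its signals of -6.04 in antibody-treated sDCs, -6.49 in sDCs and -5.36 in maDCs were not well above background, and it was at least 170-fold lower in sDCs and at least 106-fold lower in maDCs than in imDCs. Its probe lies on chromosome 6 at 83595281 to 83595339 (mm9), outside the clusters. Of the Cd209 genes, on chromosome 8, Cd209a, Cd209c, Cd209d and Cd209e were likewise above background in imDCs alone. Cd209c had a level of -2.26 in imDCs, Cd209d, which encodes SIGNR3, had -2.83, Cd209a, the mouse gene named for DC-SIGN, had -3.61, and Cd209e had -3.82. Against imDCs, sDCs were at least 13.8-fold lower for Cd209c, 9.23-fold for Cd209d, 5.39-fold for Cd209a and 4.64-fold for Cd209e, and maDCs were at least 9.1-fold, 6.1-fold, 3.56-fold and 3.07-fold lower for the same genes. With normexp correction the bounds for Cd209a and Cd209e fell short of 2-fold in both comparisons, at log2 -0.65 and -0.80 for sDCs and -0.47 and -0.62 for maDCs.

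Cd209f departed from its neighbours. It was above background on both sDC arrays, at -3.58 with the antibody and -3.93 without it, and on neither other array. It was at least 2.85-fold higher in sDCs than in maDCs, a bound of 0.66 in log2 with normexp correction, and at least 8.68-fold higher than in imDCs. A second Cd209f probe was above background in imDCs alone, at -6.60, on the array with the lowest limit. Its signals were -6.29 in antibody-treated sDCs, -6.75 in sDCs and -7.62 in maDCs. This second probe allowed no difference and did not show the same pattern, so the pattern of Cd209f rests on the brightest probe. Clec4g, which encodes LSECtin of liver and lymph node sinusoids, was at -6.03 in sDCs and -5.07 in imDCs and dim elsewhere. Clec1a was detected at -7.05 in imDCs, near that array's limit, and allowed no fold.

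Several Clec2 genes, Clec2d and Clec2i among them, encode ligands of the Klrb1 receptors of natural killer and other cells. The other Clec2 genes, such as Clec2l, were grouped with them by name. Clec2d, which encodes Clr-b, had levels of 1.04 in antibody-treated sDCs, 0.82 in sDCs, 0.83 in maDCs and -1.48 in imDCs. As with Clec4e, the 3 LPS-exposed cultures lay together, and Clec2d was 4.93-fold higher in sDCs and 4.97-fold higher in maDCs than in imDCs. Its inhibitory receptor gene Klrb1b, named here after its values were seen, had levels of -1.69 in maDCs and -4.36 in imDCs and was not well above background on either sDC array. Klrb1b was at least 20.4-fold lower in sDCs than in maDCs and 6.39-fold higher in maDCs than in imDCs.

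Clec2i, which encodes Clr-g, had levels of 1.18 in antibody-treated sDCs, 1.21 in sDCs, 0.68 in maDCs and 0.60 in imDCs. Clec2g had -0.07, -0.09, -0.56 and -0.56 in that order, so that neither gene differed by 2-fold in any comparison. The brightest Clec2g probe and the Clec2i probe share a run of 17 of their 60 bases, shown because some of their signal could be common to both genes, with the shared run in capitals.
Clec2g and Clec2i probes: TTACCAAGAGACTCTTC
The other Clec2g probe was not well above background on any array, so the level of Clec2g is uncertain. Clec2l had -4.59 in antibody-treated sDCs, -4.70 in sDCs, -3.68 in maDCs and -3.95 in imDCs, with sDCs 2.03-fold lower than maDCs and a log2 difference of -0.55 after normexp correction.

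The secreted and atypical genes varied little. Clec11a, a growth factor of bone and marrow also called osteolectin, had levels of -2.81 in antibody-treated sDCs, -2.64 in sDCs, -2.87 in maDCs and -3.12 in imDCs. Clec16a, an endosomal protein of the autophagy pathway, had 0.28, 0.14, 0.59 and 0.17 in that order. A second Clec16a probe was above background in imDCs alone, at -6.94, and allowed no difference, so these levels rest on the brightest probe. Clec3b, which encodes the plasminogen-binding protein tetranectin, had -4.00 in antibody-treated sDCs, -4.16 in sDCs, -5.12 in maDCs and -5.37 in imDCs. It alone in this group passed 2-fold, 2.32-fold higher in sDCs than in imDCs, and this log2 difference of 1.21 was 0.74 after quantile normalization.

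Of the signalling genes downstream of these receptors, 26 of the 27 listed were on the array and all 26 were above background on every array. With the antibody, none differed by 2-fold, and the values ran from -0.52 to 0.45. In sDCs 7 of the 26 (26.9%) were higher than in maDCs and 4 (15.4%) lower, beside the 14.2% and 16.8% over all genes. The lower ones included Malt1 (-2.81), a protease of the complex that carries Syk signals to NF-kB, Blnk (-2.59), an adaptor, Src (-2.08), a kinase, and Lsp1 (-1.95), a leukocyte actin-binding protein. Nfatc2 (2.07), a calcium-regulated transcription factor, and Vav3 (1.86), a guanine exchange factor, were higher.

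Compared with imDCs, sDCs had 7 of these 26 genes higher (26.9%) and 2 lower (7.69%), beside 25.4% and 16.1% over all genes, led by Nfatc2 (2.04), Lsp1 (-1.88), Vav3 (1.71) and Hcst (1.69), the adaptor DAP10. In maDCs minus imDCs, 5 were higher (19.2%) and 3 lower (11.5%), beside 21.6% and 10.8% over all genes, led by Src (3.57), Blnk (3.30), Cblb (1.72), a ubiquitin ligase, and Malt1 (1.68). The medians of the list were 0.46, 0.65 and 0.14 in those 3 comparisons, beside 0.03, 0.21 and 0.18 over all genes. Src and Blnk were thus higher in maDCs than in both sDCs and imDCs, and Nfatc2 and Vav3 were higher in sDCs than in both.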

How the data were processed

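Each array's spot intensities, as deposited in the scanner tables, were background-subtracted processed signals on a linear scale, made with Agilent Feature Extraction 10.5.1.1 per the file headers, while the submitters' processing notes name version 9.1. Control spots and 76 to 148 outlier spots per array were left out, and no spot was saturated. Each of 41174 probes was taken as log2 of its processed signal minus the 75th percentile of its array (R 4.3.3, limma 3.58.1, Python 3.11.15, numpy 2.4.6, pandas 2.3.3). A probe was called well above background if the scanner software had marked 50% or more of its spots as such, and 61.2% to 69.7% of all spots on an array carried that mark. The authors' deposited value table, on a log2 scale with a median of 6.3 on every array, was used as an alternative, with its normalization unknown. The number of arrays, 1 per group, limits the precision.

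Groups came from the labels. The lectin genes and the gene lists were chosen with earlier results of these data known. All lectin genes are accounted for. Up to 6 genes per comparison were named from the list of other lectins and from the signalling list, and up to 3 from each marker list. The signalling genes named were those with the largest differences. The other lectin genes named were not always the largest, since some genes with larger differences were left out. The other lectin list was trimmed of 2 genes that are not C-type lectins after the arrays were read. Probe positions are those of the scanner tables (mm9). Exon and UTR annotation of that build was not used here, and promoter sequences from RefSeq (GRCm38.p6) carry coordinates of their own. The calculation was tested on simulated data. The alternatives were quantile normalization, normexp background correction with an offset of 50, the deposited table, the mean over a gene's probes, and 2 filters on dim probes.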

Additional observations from a re-analysis of the deposited data

How the results depend on the processing

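Of the settings that rescale every value, normexp took 13 single-gene differences back under 2-fold and 1 past it, quantile normalization took 3 back and 4 past it, and 4 went each way in the deposited table. No difference past 2-fold turned its direction under these 3. The 2 filters and the mean over probes leave most values as they are by construction and say little about stability. The medians over the lectin genes were all under 2-fold and some changed sign: for sDCs minus maDCs 0.54 became -0.32 without a filter, for sDCs minus imDCs 0.18 became -0.07 with the mean over probes, and for maDCs minus imDCs -0.18 became 0.04 with normexp, 0.25 with probes detected on all 4 arrays and 0.24 without a filter. With the antibody, where no gene passed 2-fold, Clec1b became the 1 lower gene after quantile normalization (-1.06) and in the deposited table (-1.04), and without a filter on dim probes 1 gene was higher. For sDCs against maDCs, 8 higher genes became 5 with normexp correction and 5 with only probes detected on all 4 arrays, while 2 lower genes became 1 with normexp and 5 without a filter. For sDCs against imDCs, 8 higher genes became 5 with normexp, 5 in the deposited table, 5 with probes detected on all arrays and 13 without a filter, and 7 lower genes became 2 with probes detected on all arrays. The balance turned there with 6 higher and 9 lower after quantile normalization and 5 higher and 9 lower in the deposited table. For maDCs against imDCs, 4 higher genes became 10 without a filter and 9 lower genes became 4 with probes detected on all arrays. The filters change the counts by their own construction, since they remove or add genes that were dim on an array, and the cause of the other changes was not tested. Clec5a was lower in maDCs than in imDCs past 2-fold after quantile normalization (-1.27), in the deposited table (-1.28) and as the mean over its probes (-1.47). Signal over background limits the Cd209 genes, Clec4f, Clec4a1 and Clec9a to bounds. No paired analysis was possible because each group had 1 array and no result came from a test.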

Other observations

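Of 44 C-type lectin genes outside the Clec and Cd209 names, 4 of 31 with a value differed by at least 2-fold with the antibody, 2 higher and 2 lower, against 2.12% of all genes. The higher genes were the eosinophil gene Prg2 (1.55) and Klrb1f (1.04), and the lower genes were Reg3g (-1.05) and the stromal gene Cd248 (-1.0). Stromal markers were lower in level (median -0.89) and neutrophil markers higher (median 0.96) in the same comparison. The part of those cells was not tested. In sDCs 11 of 36 were higher and 15 lower than in maDCs, with 11 bounds among the 36, against 14.2% higher and 16.8% lower over all genes. Mrc1, which encodes the mannose receptor of macrophages, had levels of 3.81 in antibody-treated sDCs, 4.07 in sDCs, -2.20 in maDCs and 0.84 in imDCs. It was 77.2-fold higher in sDCs than in maDCs and 9.37-fold higher in sDCs than in imDCs. Mgl2, which encodes a galactose-type lectin of alternatively activated macrophages and DCs, had levels of -5.21 in antibody-treated sDCs, -4.99 in sDCs, 2.60 in maDCs and 4.13 in imDCs. It was 193-fold lower in sDCs than in maDCs, and Olr1, the oxidized LDL receptor LOX-1, was 159-fold lower.

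Against imDCs, sDCs had 17 of 35 of these genes higher and 12 lower, with 6 bounds, against 25.4% and 16.1% over all genes, and Asgr2, a subunit of the asialoglycoprotein receptor, was 140-fold lower. In maDCs minus imDCs, 15 of 32 were higher and 5 lower, with 3 bounds, against 21.6% and 10.8% over all genes. Cd207, which encodes langerin of Langerhans cells, had levels of -5.20 in antibody-treated sDCs, -5.26 in sDCs and -1.79 in imDCs and was not well above background in maDCs. It was 11.1-fold lower in sDCs than in imDCs and at least 12.6-fold lower in maDCs than in imDCs.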
